A study of Mus musculus with 6 samples.

Results

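The genes described here are Wwox and those of 9 proteins reported to bind the Wwox protein, namely Trp73, Tfap2a, Tfap2c, Erbb4, Yap1, Jun, Runx2, Hif1a and Dvl2. All probe sets whose annotation names exactly 1 of these symbols were taken, without regard to their values. This gave 23 of the 45037 probe sets tested, for 9 of the 10 genes: 4 probe sets of Wwox and 19 of the partners. No probe set carried Runx2 as its single symbol in the annotation used, and Runx2 is not analysed here. Expression had been measured in mammary gland epithelial organoids, the pieces of duct and alveolus that remain when the gland is digested, on 6 Affymetrix arrays of 1 mouse each. The 3 WT mice were BK5-cre -; WWOX flox/flox and the 3 KO mice BK5-cre +; WWOX flox/flox, all 8 weeks old and of a mixed (129/J; C57BL/6) background. Both groups thus carried the floxed alleles and differed by the Cre transgene, so that effects of Cre and of Wwox loss cannot be told apart. The bovine keratin 5 promoter that drove Cre is active in precursors and basal cells of epithelia, not in stromal cells that an organoid preparation may still hold. Fewer cells of a type and less RNA per cell cannot be told apart in these bulk samples.

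WWOX, the WW domain-containing oxidoreductase, was proposed as a tumor suppressor, and its expression is often lost in breast and other cancers. Its WW domains bind proline-rich PPxY motifs, and many of its partners are transcription factors or coactivators that the largely cytoplasmic Wwox protein can hold away from the nucleus. Through them it touches the p53 family, AP-2, AP-1, hypoxia, Hippo, ERBB4 and Wnt signaling. Such binding acts on proteins and the arrays measured RNA only, so the values below are mRNA levels of the partners and of genes downstream of them. Values are RMA values on the log2 scale, and a change is KO minus WT of the group means. A probe set was called, and is said to have risen or fallen, where limma's p before adjustment was under 0.01 and the groups differed 2-fold or more. The adjusted p is Benjamini-Hochberg's over all 45037 probe sets.

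Promoter sequence is given for Yap1, Hif1a and Dvl2, the partners that had both a probe set with every KO array above every WT array (values below) and a promoter holding ACGTG, the core of the hypoxia response element that HIF1A binds. Each is a RefSeq promoter of 300 bases (build GRCm38.p6), 5′ to 3′ on the gene's strand, with matches to ACGTG on either strand in capitals. Where ACGTG on the 2 strands overlaps, the letters read CACGTG, which is also an E-box, the site of MYC and other helix-loop-helix factors, and were counted as 1 place.
Yap1, chr9:8004547-8004846, minus strand: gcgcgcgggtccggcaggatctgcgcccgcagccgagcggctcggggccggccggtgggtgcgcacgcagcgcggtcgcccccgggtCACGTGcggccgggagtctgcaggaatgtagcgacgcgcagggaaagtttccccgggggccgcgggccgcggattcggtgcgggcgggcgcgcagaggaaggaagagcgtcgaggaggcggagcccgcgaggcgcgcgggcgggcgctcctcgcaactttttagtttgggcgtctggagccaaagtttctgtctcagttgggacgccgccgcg
Hif1a, chr12:73907617-73907916, plus strand: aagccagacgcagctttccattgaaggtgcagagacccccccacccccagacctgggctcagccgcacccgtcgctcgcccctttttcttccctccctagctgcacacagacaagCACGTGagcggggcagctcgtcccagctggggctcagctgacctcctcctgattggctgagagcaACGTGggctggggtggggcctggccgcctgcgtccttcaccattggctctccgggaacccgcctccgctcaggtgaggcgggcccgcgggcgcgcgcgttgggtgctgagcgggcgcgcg
Dvl2, chr11:70000342-70000641, plus strand: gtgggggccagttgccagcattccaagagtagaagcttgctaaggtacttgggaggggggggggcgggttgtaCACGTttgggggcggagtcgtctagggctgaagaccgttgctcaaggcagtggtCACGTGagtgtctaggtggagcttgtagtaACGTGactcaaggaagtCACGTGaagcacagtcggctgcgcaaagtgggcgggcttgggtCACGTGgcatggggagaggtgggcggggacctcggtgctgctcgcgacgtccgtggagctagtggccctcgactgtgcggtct
The Yap1 promoter held 1 such place, that of Hif1a 2 and that of Dvl2 5. Of 32851 promoters of this length in the table, 19.6% held at least 1. The table has 10 promoters for 8 of the 10 genes, 2 each for Trp73 and Tfap2a. Those of Trp73, Tfap2a, Erbb4, Jun and Runx2 held none, although Trp73 also had a probe set with every KO array above WT. Tfap2c had such a probe set as well, but Tfap2c and Wwox have no promoter in the table. The promoters shown were chosen by both traits, so a link between site and change was not tested. Other motifs were also searched: AP-1 TGANTCA was found in Dvl2 only (7.81% of all promoters), TEAD GGAATG in Yap1 and Dvl2 (14.7%), RUNX ACCACA in Runx2 itself, at 3 places (16.8%), and AP-2 GCCNNNGGC in Trp73 and Yap1 (16.6%). A match is a stretch of letters and not a measured binding site.

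On the whole array 1.99% of probe sets were called, 1.69% higher and 0.3% lower in KO, and 0.222% passed an adjusted p under 0.05. The median change over all probe sets was -0.03. RNA quality was not the same in both groups. For the control transcript Gapdh, the excess of the 3′ over the 5′ probe set, a measure of RNA integrity, lay between 0.95 and 2.41 on the log2 scale in WT and between 0.40 and 0.56 in KO, and those of β-actin and the transferrin receptor were also higher on every WT array (exact permutation test, two-sided, p = 0.1, the smallest possible). Pyruvate carboxylase went the other way, at 2.22 ± 0.67 (SD, n = 3) in WT and 2.83 ± 0.38 in KO, with overlap (exact permutation test, two-sided, p = 0.3). Results are therefore also given below with this excess as a covariate. The label of the tissue fitted its markers: Epcam was at 13.93 in WT and 13.82 in KO, Krt8 at 14.52 and 14.64, Krt14 at 10.42 and 10.55, and on the brightest probe set 0 of 12 epithelial and 0 of 6 myoepithelial markers were called (limma, 0 of each at an unadjusted p under 0.05). Endothelial markers averaged 9.08 to 9.57 on the WT arrays and 9.69 to 10.24 on the KO arrays, and 2 of 9 were called higher, Cldn5 (1.24) and Tie1 (1.16), while 5 were higher at an unadjusted p under 0.05 and 0 lower. Cldn5 was called under every alternative run, and Tie1 was not with the covariates (0.18 and 0.62) or without WT2, WT3, KO5 or KO6. Fibroblast markers overlapped, at 10.36 to 10.80 in WT and 10.43 to 11.19 in KO, with Col1a1 the called gene among 10 and 3 higher and 0 lower at that limit, the others being the collagen genes Col1a2 (0.84) and Col3a1 (0.56). So did leukocyte markers, at 6.05 to 7.61 and 5.76 to 6.85, and adipocyte markers, at 7.64 to 8.69 and 8.04 to 8.31, with 0 called of 13 (limma, 0 at an unadjusted p under 0.05) and 0 of 7 (1 at that limit), although the lipid carrier gene Fabp4 was called higher on its other probe sets (2.65 and 1.18). The second of these calls was lost without WT1 (0.86), KO5 or KO7 and with the replicate block. Leukocyte markers all had negative changes, with a median of -0.48, the largest being Cd3g (-2.16) and Ptprc (-1.89). Ptprc read 11.29, 10.24 and 7.81 in WT and 7.16, 9.18 and 7.32 in KO. The part of these differences in the results below was not tested beyond the covariate.

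Wwox, the targeted gene, fell in the KO organoids. Probe set 1416334_at, the brightest of the 4 and the one that the annotation ties to the RefSeq transcript, was at 7.77, 7.63 and 7.72 in WT1, WT2 and WT3 and at 6.23, 5.87 and 5.96 in KO5, KO6 and KO7. All KO arrays lay more than 1 log2 unit below all WT arrays. The change was -1.69 (standard error 0.13, 95% confidence interval -1.99 to -1.39, adjusted p = 0.0228), a level 3.23-fold lower in KO. The KO mean of 6.02 does not tell remaining Wwox RNA from the background of the probes. It was called under each of the 16 alternatives computed, with changes between -1.81 and -1.61.

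The other Wwox probe sets differed by smaller amounts. Probe set 1438517_at read 6.06, 5.25 and 5.84 in WT and 4.71, 4.69 and 4.63 in KO, so that WT varied widely (SD 0.42) and KO hardly (SD 0.04). It fell by 1.04 (standard error 0.20, adjusted p = 0.0675) and was the other called member. This call was lost without WT1, at -0.86, and without WT3, at -0.97. On 1431942_at the WT arrays were at 5.70, 5.63 and 5.62 and the KO arrays at 5.41, 5.37 and 5.44. The groups did not overlap, and the change of -0.24 (95% confidence interval -0.47 to -0.01, adjusted p = 0.240) was not called. On 1431960_at WT read 5.24, 5.90 and 5.78 and KO 5.16, 5.27 and 5.16. Here WT1 lay among the KO arrays, and the change was -0.44 (95% confidence interval -0.86 to -0.02, adjusted p = 0.237).

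**Figure D1:**
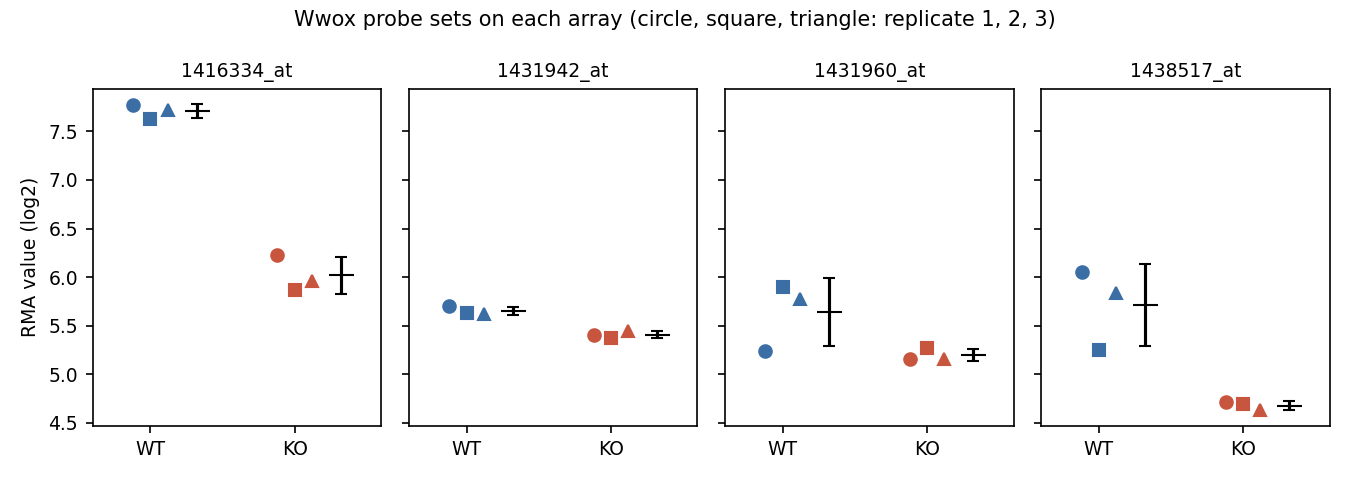
RMA value (log2, y axis) of each of the 4 Wwox probe sets on the 3 WT and 3 KO arrays; points are arrays, marked by replicate number, and bars the mean and SD. On 1416334_at WT lies at 7.63 to 7.77 and KO at 5.87 to 6.23, while on 1431960_at the groups overlap.

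The changes were also set against each other within each array, where 1416334_at exceeded 1431942_at by 2.06 ± 0.06 (SD, n = 3) in WT and by 0.61 ± 0.18 in KO. It exceeded 1431960_at by 2.07 ± 0.41 and 0.82 ± 0.24, and 1438517_at by 1.99 ± 0.35 and 1.34 ± 0.17. For each of the 3 pairs every KO array had the smaller difference (exact permutation test, two-sided, p = 0.1 and adjusted p = 0.1, the smallest that 3 against 3 allow). The shifts in these differences were -1.45, -1.25 and -0.65. The 3 dimmer probe sets averaged 5.65, 5.64 and 5.71 in WT and stood at the middle of the array, with 46.2% to 51.1% of all probe sets dimmer, so that less loss and signal close to background cannot be told apart on them. Where each lies relative to the deleted part of Wwox, and which transcripts each one reads, was not determined here.

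Together 2 of 23 member probe sets, both of Wwox, were called lower and 0 higher, against 0.3% and 1.69% of the array. The partners had no called probe set by limma, and 6 of 19 had an unadjusted p under 0.05, all 6 of them higher in KO (9.54% of the array were higher at that limit and 9.74% lower). In 5 of 19 every KO array lay above every WT array (10.7% of the array), and in 0 of 19 below (13.6%). A positive change was seen in 15 of 19, and a negative one in 4, against 43.7% and 56.3% of all probe sets, and the median change was 0.16. With the Gapdh/β-actin covariate 13 of 19 were positive and the median was 0.08. Probe sets of 1 gene read RNA of the same gene and are not independent, and the lowest adjusted p was 0.0814. For 16 of the 19 the 95% confidence interval lay within a 2-fold change in either direction, and for 13 it included 0. The highest upper bound was 1.21, on a Hif1a probe set.

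**Figure D2:**
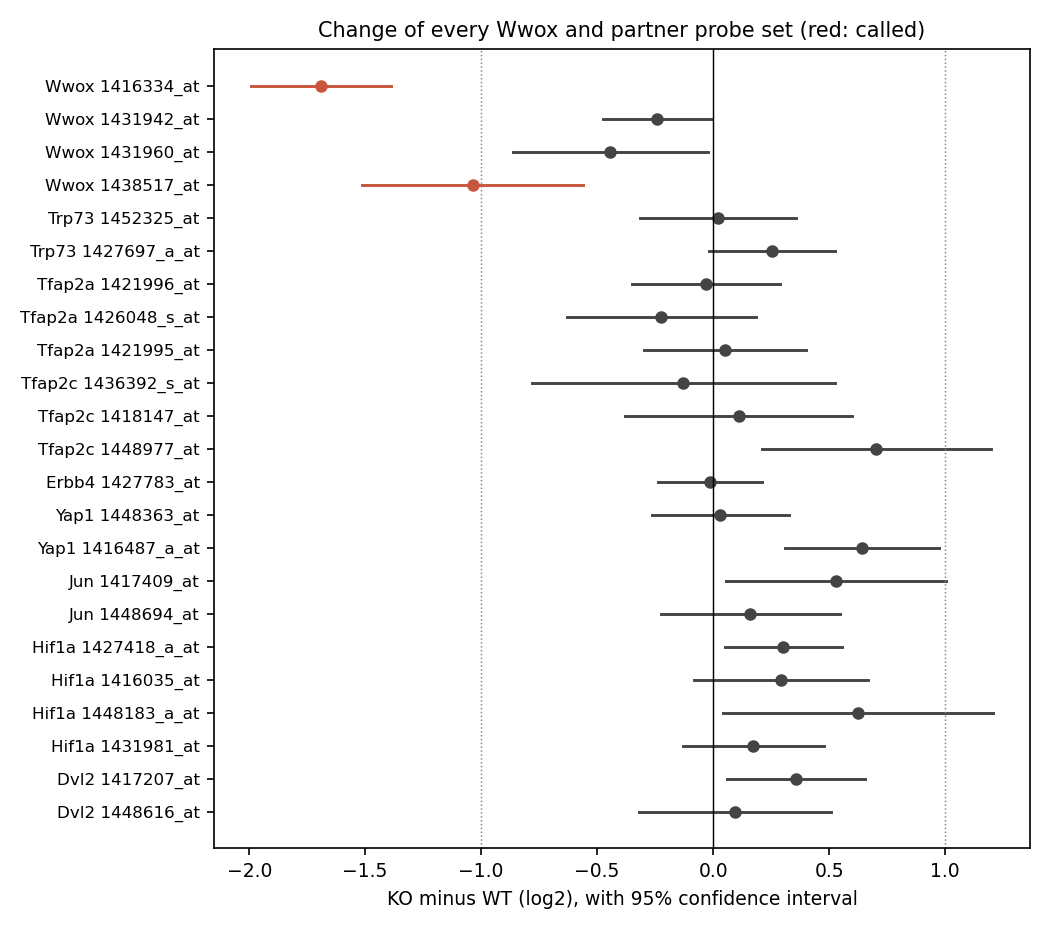
Change of each of the 23 probe sets, KO minus WT on the log2 scale (x axis), with its 95% confidence interval; red marks the called ones, dotted lines a 2-fold change. The called probe sets are both of Wwox, at -1.69 and -1.04, and the partners lie between -0.22 and 0.70.

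Trp73 encodes p73, a p53 family factor that acts in cell death and the differentiation of epithelia. Its probe set 1427697_a_at read 4.56, 4.60 and 4.68 in WT and 4.71, 5.00 and 4.89 in KO. The KO arrays were all higher, by a change of 0.25 (95% confidence interval -0.02 to 0.53, adjusted p = 0.290) that was not called. On 1452325_at the arrays overlapped, at 4.89, 5.02 and 5.24 in WT and 4.87, 5.14 and 5.20 in KO, with a change of 0.02 (95% confidence interval -0.32 to 0.36). The Trp73 probe sets had 38.9% and 44.2% of all probe sets dimmer, so that Trp73 RNA and signal close to background cannot be told apart.

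Tfap2a and Tfap2c encode AP-2α and AP-2γ, transcription factors of the mammary epithelium that act on ERBB2 and the estrogen receptor gene in breast cancer cells. The 3 probe sets of Tfap2a overlapped between the groups, with changes of -0.03, -0.22 and 0.05. The brightest, 1421996_at, read 8.24, 8.40 and 7.95 in WT and 8.15, 8.19 and 8.15 in KO (95% confidence interval of the change -0.35 to 0.29). Those of Tfap2c differed among themselves. On 1448977_at WT was at 7.21, 6.96 and 7.29 and KO at 8.07, 7.38 and 8.11. Every KO array was higher, and the change of 0.70 (standard error 0.21, 95% confidence interval 0.21 to 1.2, adjusted p = 0.140) was the largest of any partner probe set, short of a call at an unadjusted p of 0.0117. On 1436392_s_at, however, WT read 8.43, 9.05 and 9.28 and KO 9.21, 8.35 and 8.82, and on 1418147_at WT read 7.29, 7.46 and 7.62 and KO 8.02, 7.23 and 7.46. Both overlapped, with changes of -0.13 and 0.11, so that the probe sets of this gene gave no common direction.

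Jun encodes a subunit of AP-1, a factor of growth and stress responses. It read 13.31, 12.81 and 12.69 in WT and 13.49, 13.19 and 13.71 in KO on 1417409_at, where 99.4% of probe sets were dimmer. WT1 lay above KO6, and the change was 0.53 (standard error 0.20, 95% confidence interval 0.06 to 1.0, adjusted p = 0.215). With the Gapdh/β-actin covariate it was -0.01. The other probe set, 1448694_at, read 11.46, 11.22 and 10.85 in WT and 11.27, 11.36 and 11.38 in KO, a change of 0.16 (95% confidence interval -0.23 to 0.55).

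Hif1a encodes the oxygen-regulated subunit of the hypoxia-inducible factor, a driver of glycolytic genes. All 4 of its probe sets had positive changes, and none was called (limma, 2 of 4 at an unadjusted p under 0.05). On the brightest, 1427418_a_at, WT was at 12.41, 12.59 and 12.54 and KO at 12.80, 12.89 and 12.76. The groups lay apart, by 0.30 (standard error 0.11, 95% confidence interval 0.05 to 0.55, adjusted p = 0.188). On 1448183_a_at WT read 5.65, 5.69 and 6.28 and KO 6.78, 6.03 and 6.69, where WT3 exceeded KO6 and the change was 0.62 (adjusted p = 0.230). The remaining probe sets differed by 0.29 and 0.17. The latter, 1431981_at, had 29.6% of all probe sets dimmer, so that Hif1a RNA and signal close to background cannot be told apart on it. With the Gapdh/β-actin covariate the 4 changes were 0.47, 0.77, 0.55 and -0.06.

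Yap1, the coactivator at the end of the Hippo pathway, which shares with Wwox the PPxY motif of ERBB4 as a binding site, had the lowest adjusted p of the partners. Probe set 1416487_a_at read 7.38, 7.57 and 7.76 in WT and 8.33, 8.04 and 8.26 in KO. All KO arrays were higher, by 0.64 (standard error 0.14, 95% confidence interval 0.31 to 0.97, adjusted p = 0.0814), or 1.56-fold, from 7.57 ± 0.19 (SD, n = 3) to 8.21 ± 0.15 (SD, n = 3). Its unadjusted p of 0.00242 met the limit on p and its size did not meet the 2-fold limit. Over 16 alternatives the change lay between 0.55 and 0.87. The brighter Yap1 probe set, 1448363_at, read 10.23, 10.22 and 9.97 in WT and 10.15, 10.05 and 10.31 in KO. It overlapped, with a change of 0.03 (95% confidence interval -0.26 to 0.33). The annotation ties both to the RefSeq transcript.

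Erbb4, the neuregulin receptor whose cleaved intracellular domain works with STAT5 in the lactating gland, was measured by 1 probe set, 1427783_at. It read 2.81, 2.77 and 2.77 in WT and 2.77 on each KO array, and 0.2% of probe sets were dimmer. A change of -0.01 (95% confidence interval -0.24 to 0.21) at this end of the scale says nothing of how Erbb4 RNA differed.

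Dvl2 encodes Dishevelled-2, which relays signals from Frizzled receptors in both branches of the Wnt pathway. On 1417207_at WT was at 5.55, 5.27 and 5.29 and KO at 5.65, 5.67 and 5.86. The groups did not overlap and differed by 0.36 (standard error 0.13, 95% confidence interval 0.06 to 0.65, adjusted p = 0.188), which became 0.08 with the Gapdh/β-actin covariate. On 1448616_at WT read 3.61, 3.44 and 4.0 and KO 3.60, 3.99 and 3.74, a change of 0.09 (95% confidence interval -0.32 to 0.51). The Dvl2 probe sets had 51.4% and 17.9% of all probe sets dimmer, so that Dvl2 RNA and signal close to background cannot be told apart.

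**Figure D3:**
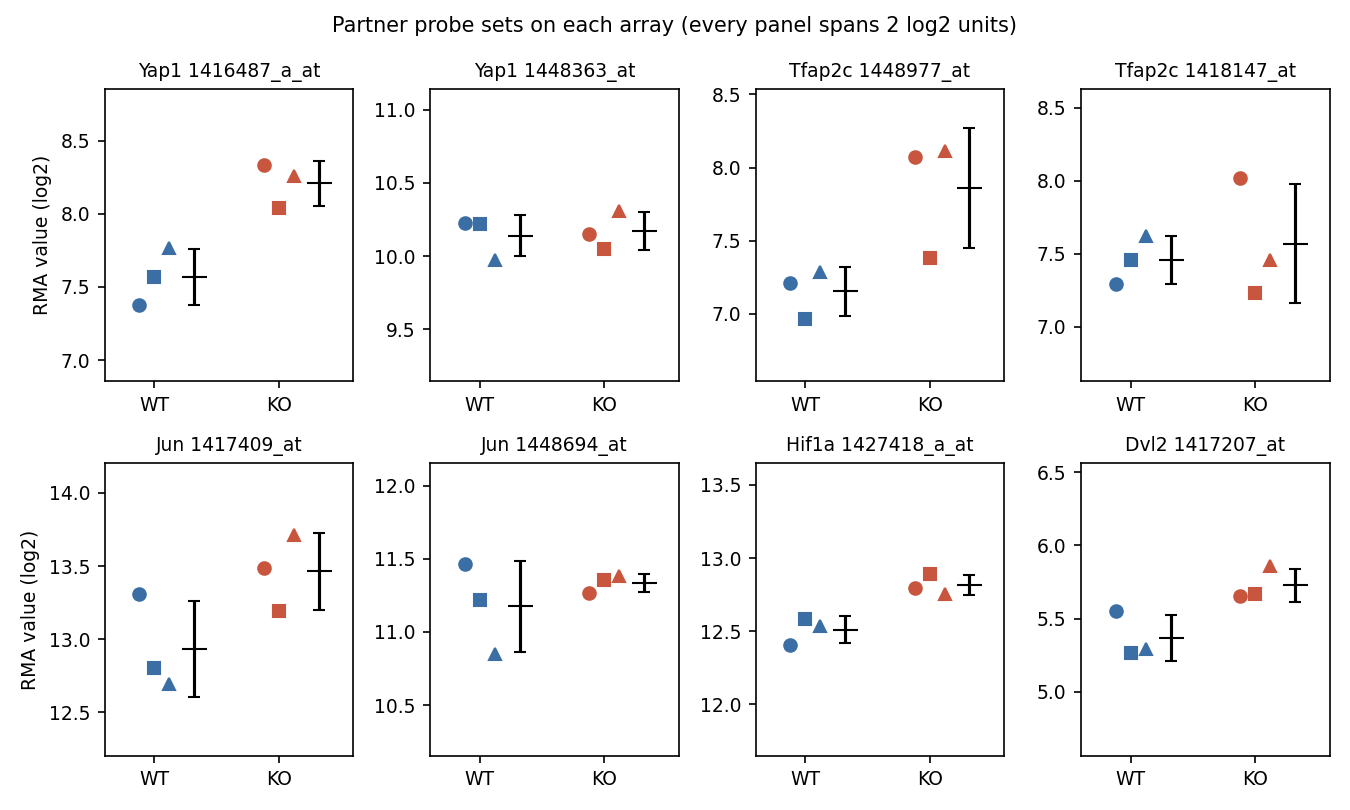
RMA value (log2, y axis, 2 units in every panel) of 8 partner probe sets on the 3 WT and 3 KO arrays; points are arrays, marked by replicate number, and bars the mean and SD. For Yap1 and Tfap2c 1 probe set has all KO arrays above WT (8.04 to 8.33 against 7.38 to 7.76 for Yap1), while the other one shown of the same gene overlaps.

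The covariates for RNA quality moved some members and not others. With the mean 3′ excess of Gapdh and β-actin in the fit, Wwox 1416334_at was at -1.81 and 1438517_at at -1.68, both still called, while 1431960_at went from -0.44 to 0.18. Yap1 1416487_a_at was at 0.87 and Tfap2c 1448977_at at 0.51. The value of all 4 control transcripts gave -1.70 and -1.31 for these Wwox probe sets, 0.83 for Yap1 and 0.63 for Tfap2c. Jun 1417409_at, at 0.53 without a covariate, was at -0.01 and 0.12 with them, and Dvl2 1417207_at, at 0.36, was at 0.08 and 0.15. The Gapdh and β-actin values did not overlap between the groups, and the standard error of Wwox 1416334_at was 0.24 with that covariate against 0.13 without. The lowest adjusted p of the partners was 0.936 and 0.262 with them, and that of Wwox 1416334_at 0.480 and 0.147.

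**Figure D4:**
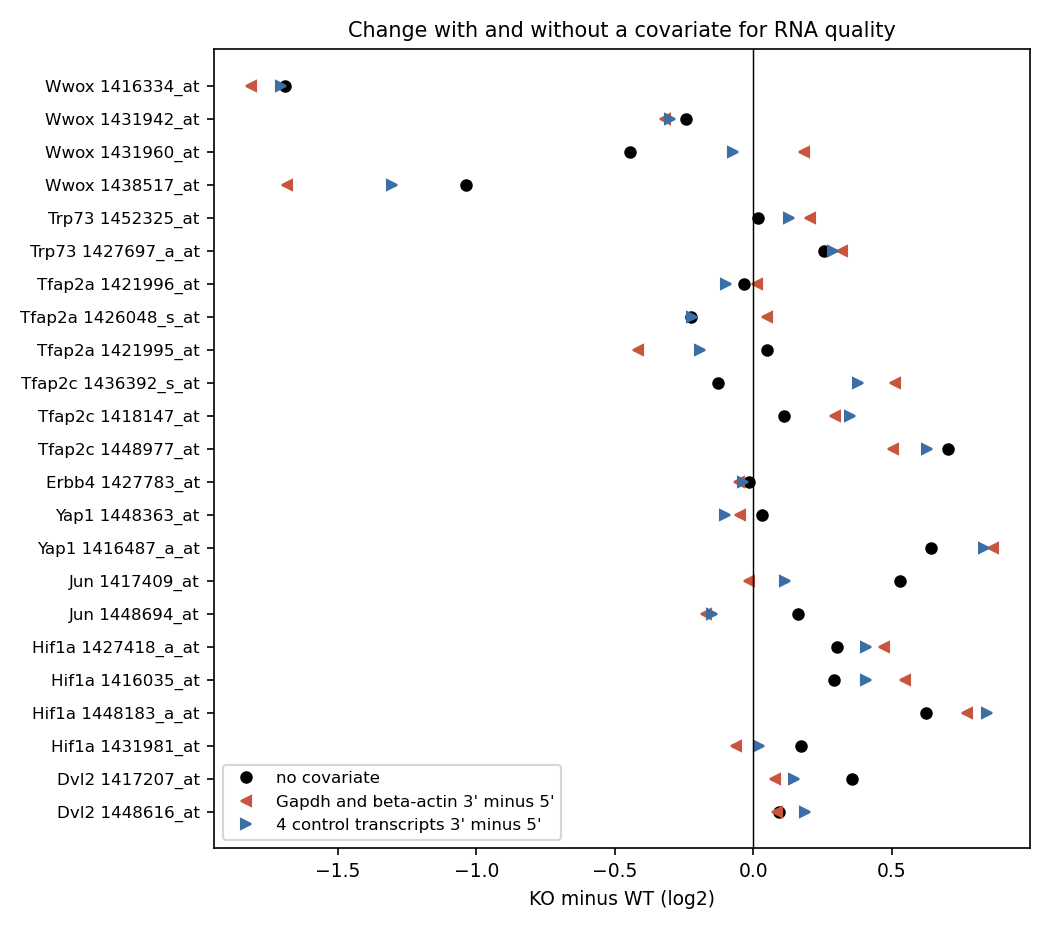
Change of each of the 23 probe sets, KO minus WT on the log2 scale (x axis), with no covariate and with each of the covariates for RNA quality. Wwox 1416334_at stays between -1.81 and -1.69, whereas Jun 1417409_at moves from 0.53 to -0.01 and 0.12.

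Of the genes around these partners, 11 lists with 144 measured genes were examined, on the brightest probe set of each gene; 5 genes rose and 2 fell. Over all 18193 genes 0.517% rose and 0.462% fell on that probe set, and 2.95% and 0.55% did on any probe set; the median change of the brightest probe sets was -0.06. Of 17 genes of further WWOX partners, none was called (limma, 2 at an unadjusted p under 0.05), and the median was -0.01. Itch, a ubiquitin ligase that itself carries WW domains, was at -0.51 (adjusted p = 0.0895). Gsk3b, the kinase that marks β-catenin for destruction, rose by 2.73 on 1437001_at (adjusted p = 0.0987). WT1 read 7.51 there and WT2 and WT3 4.85 and 4.79, against 8.18 to 8.63 in KO, and the change was 0.07 with the Gapdh/β-actin covariate. The call was lost without WT2, without WT3 and without any 1 KO array, and the brightest Gsk3b probe set was at 0.50.

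The paralogs of the partners, 16 genes, had none called (limma, 5 at an unadjusted p under 0.05, all higher) and a median of 0.10. At that limit 9.54% of all probe sets on the array were higher and 9.74% lower. Junb was at 1.37 (adjusted p = 0.196) with WT spread from 9.09 to 11.33 and KO at 11.37 to 11.57, and Runx1, at 1.06 (adjusted p = 0.245), was the measured member of the Runx2 family with the larger change, Runx3 being at 0.07. The other AP-1 subunit Jund was at 0.33, the HIF-2α gene Epas1 at 0.46 and Dvl3 at 0.35. The ERBB receptors Egfr, Erbb2 and Erbb3 were at 0.03, 0.16 and 0.14, and Wwtr1, which encodes the Yap1 paralog TAZ, was at 0.09. The most negative changes among the paralogs were those of Tfap2b, at -0.70, and Trp63, at -0.40. Among 17 genes of dimer and complex partners none was called on its brightest probe set (limma, p under 0.05 before adjustment for 3 higher and 3 lower; median -0.09). Tead1, the DNA-binding partner of YAP, was at 0.77 (adjusted p = 0.0932) and Tead4 at 0.49, whereas the Hippo kinase gene Stk4 was at -0.91 and Mob1b, which activates the LATS kinases, at -0.66 (adjusted p = 0.0870). In the same list Tead2 was at 0.41 and Tead3 at -0.13, and Lats1, Lats2 and Sav1 were at -0.09, -0.09 and -0.20. Mob1a rose by 1.18 on 1424484_at, not called with the covariates (0.51 and 0.73), and was at -0.41 on its brightest probe set. List genes named without a call, here and below, were chosen after their values were seen.

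The 5 genes that rose and the 2 that fell on their brightest probe set were all in lists of targets of the same factors. Over all genes 0.517% rose and 0.462% fell on that probe set. The lists were chosen with earlier results of these data known. Of 16 YAP/TEAD targets Crim1, a transmembrane regulator of growth factors, rose by 1.71 (adjusted p = 0.0902), from 7.99, 7.35 and 6.28 in WT to 8.99, 9.18 and 8.59 in KO. The call did not hold without WT2, KO5 or KO6 (1.78, 1.68 and 1.58) or with the covariates (0.84 and 1.01). Ccn1 and Ccn2, the classical targets, were at 0.09 and 0.07, and the list's median was 0.14. Of 13 p53 family targets the antiproliferative gene Btg2 rose by 1.54 (adjusted p = 0.0546), with WT at 12.25, 11.23 and 11.55 and KO at 13.31, 13.10 and 13.24. The apoptosis gene Pmaip1 fell by 1.07 (adjusted p = 0.125), a call lost when WT1, WT2 or any KO array was left out. It was also lost after cyclic loess (-1.02) and ribosomal protein centring (-0.99). Cdkn1a, the classical target, was at 0.16. With the Gapdh/β-actin covariate Btg2 was at 0.61 and Pmaip1 at -1.75, neither called. With all 4 controls Btg2 was at 1.03 and Pmaip1 at -1.52, both still called. On a further probe set Sesn2 rose by 1.23 and was at 0.05 on its brightest. That call was lost with the covariates (0.30 and 0.60) and without WT2, WT3 or KO6. Of 7 AP-2 targets none was called (limma, 0 at an unadjusted p under 0.05), with a median of 0.16.

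Of 13 ERBB4 ligands and effectors none was called on the brightest probe set (limma, p under 0.05 before adjustment for 2 higher and 1 lower; median 0.24). Hbegf, a ligand of EGFR and ERBB4, was at 0.87 (adjusted p = 0.110), and the milk protein genes Csn2 and Wap at -2.21 (adjusted p = 0.234) and 0.29. Csn2 overlapped, at 10.66, 8.26 and 10.68 in WT and 9.33, 6.30 and 7.35 in KO. Wap averaged 4.90 in WT and 5.19 in KO, where RNA and signal close to background cannot be told apart. Adam17, a protease that sheds ERBB4 and its ligands, rose by 1.58 on 1421857_at, not called with the covariates (0.52 and 0.86), and was at 0.08 on its brightest probe set. Of 11 AP-1 targets 2 rose, the urokinase gene Plau by 1.98 (adjusted p = 0.0675) and the heme oxygenase gene Hmox1 by 1.78 (adjusted p = 0.111), while the list's median was -0.07 and turned to 0.01 after centring on ribosomal protein genes. Plau read 6.32, 4.67 and 5.09 in WT and 7.39, 7.52 and 7.12 in KO. With the Gapdh/β-actin covariate Plau was at 0.48 and Hmox1 at 0.36, neither called. With all 4 controls Plau was at 1.17 and Hmox1 at 0.72, again neither called. Hmox1 was also not called without WT2 or any KO array. Of 9 RUNX2 targets Col1a1, a chain of type I collagen that fibroblasts also make, rose by 1.43 (adjusted p = 0.0492), with WT at 9.02, 9.08 and 9.0 and KO at 10.81, 10.52 and 10.06; it was called under every alternative run. The collagen genes Col1a2 and Col3a1 of the fibroblast list, at 0.84 and 0.56, were higher beside it, and their part was not tested. The list's median was 0.01.

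Of 20 HIF targets Egln3, the prolyl hydroxylase that marks HIFα for destruction and is itself induced by HIF, fell by 1.55 (standard error 0.15, adjusted p = 0.0342). WT was at 9.52, 9.88 and 9.48 and KO at 8.24, 8.04 and 7.95 on 1418649_at, and the groups lay more than 1 log2 unit apart. It was called under every alternative run, at -1.30 with the Gapdh/β-actin covariate. Its second probe set fell by 1.02, and this call was lost after cyclic loess (-0.98), ribosomal protein centring (-0.94), without WT1, WT2 or KO7 (-0.99, -0.91 and -0.95) and with the Gapdh/β-actin covariate (-0.98). The glycolytic targets Slc2a1, Ldha, Pgk1 and Aldoa were at -0.23, 0.22, -0.26 and 0.03, and Vegfa at -0.29. On probe sets other than the brightest, Hk1 rose by 1.43 and Ndrg1 by 1.31 and 1.28, while their brightest ones were at 0.01 and -0.11. With the Gapdh/β-actin covariate Hk1 was at 0.84 and Ndrg1 at 0.47 and 0.45, none of them called. With all 4 controls Ndrg1 was at 0.89 and 0.88, not called, while Hk1 was at 1.12 and still called. The list's median was -0.08. Of 12 Wnt/β-catenin targets none was called (limma, 1 lower at an unadjusted p under 0.05; median -0.16). That gene was Axin2, the feedback target of the pathway, which read 6.77, 6.85 and 6.71 in WT and 6.31, 6.28 and 6.33 in KO, a change of -0.47 (standard error 0.10, adjusted p = 0.0786). Its groups lay apart with little spread, below the 2-fold limit.

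**Figure D5:**
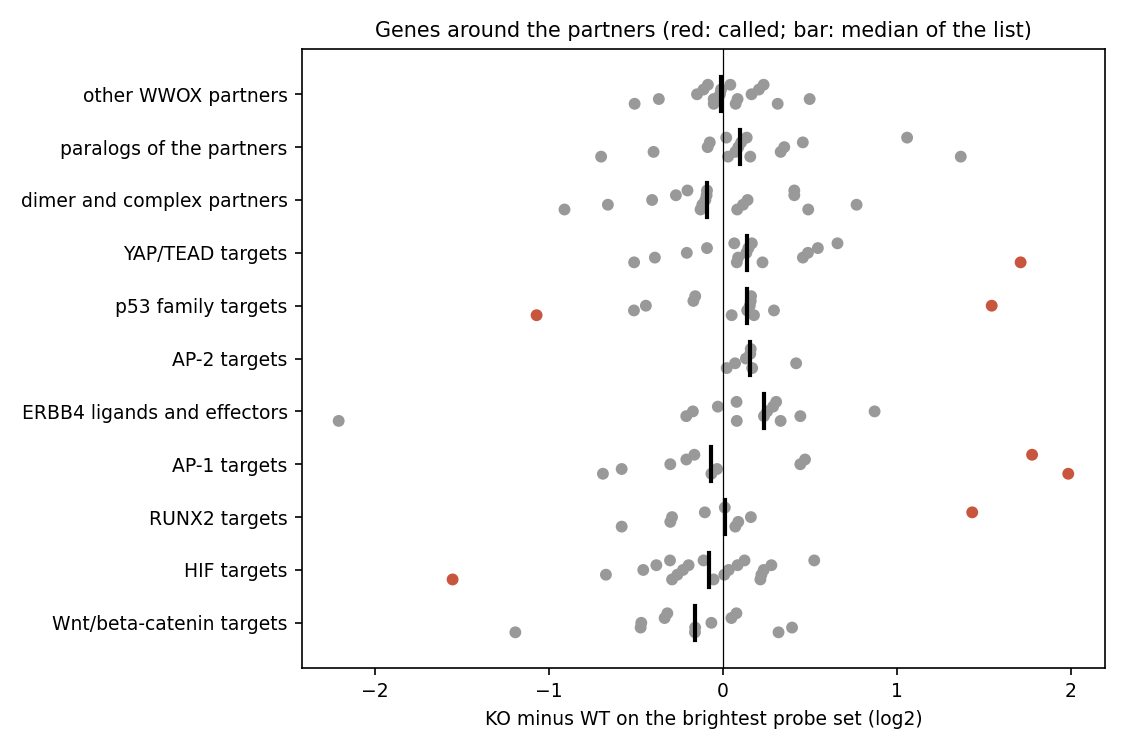
Change on the brightest probe set of each measured gene, KO minus WT on the log2 scale (x axis), by list (y axis); each point is a gene, red points are called genes and the black bar is the median of the list. The red points are Plau, Hmox1, Crim1, Btg2 and Col1a1 on the right and Pmaip1 and Egln3 on the left, while most others lie within a 2-fold change.

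Egln3 was also among the genes whose pattern was most like that of Wwox 1416334_at. Over the 6 arrays and 2948 probe sets with 1 symbol and an SD of at least 0.5, Pearson's r was 0.986 for Ccnd3, the gene of cyclin D3, 0.982 for Rabgap1l, 0.979 for the acid phosphatase gene Acpp, 0.976 for Egln3 1418649_at and 0.972 for Ripor2. Their changes were -1.12, -0.97, -1.84, -1.55 and -1.07. As the arrays fall into the same WT and KO groups, such an r mostly reads the split between them and is given as a description. The other Wwox probe sets had r of 0.968, 0.920 and 0.686 with it. In the order of genes along the chromosome, 6 genes next to Wwox were looked up and 1, 4933408N05Rik, had a probe set, at -0.08. The nearest protein-coding genes with probe sets, added afterwards, were Vat1l at 0.54, Dynlrb2 at -0.38 and the transcription factor gene Maf, whose 6 probe sets ran from -0.45 to 0.62. None of these 9 neighboring probe sets was called (limma, 4 at an unadjusted p under 0.05).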

How the data were processed

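Organoid RNA of 3 WT and 3 KO mice was hybridized to Affymetrix mouse arrays. The deposited values are log2 values, for which the authors used RMA (its version is not given in the sources used here) to correct background, quantile normalize and summarize probes; their methods name simpleaffy and limma. These values were not normalized again. Of 45101 probe sets, 64 Affymetrix controls were left out of the tests; GEO's platform annotation gives 34945 of the rest 1 symbol, 932 more than that and 9160 no symbol, and names come from those with 1. A gene's brightest probe set has the highest mean over the 6 arrays.

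KO was compared with WT on all 45037 probe sets in limma 3.58.1 (R 4.3.3, lmFit and eBayes, no covariate), a step also tested on simulated data. A call needed an unadjusted p under 0.01 and a 2-fold change, the sizes of the limits the study used, whose text does not say whether its p was adjusted. The study's p for Gsk3b, 0.0044, matched the unadjusted limma p on 1437001_at (0.00443) rather than the adjusted p (0.0987). Single values were compared by exact permutation tests, two-sided, with a smallest p of 0.1. Named genes were all member probe sets, genes of each list with a called probe set, 3 genes on each side of Wwox, the 5 most like it in pattern, and cell type markers. Further list genes without a call were named after their values were seen. The members and lists were chosen with earlier results of these data known. Replicates were separate mice, and 3 per group limit the precision. Alternatives were cyclic loess, ribosomal protein centring, a minimum mean of 6, a trended robust prior, array weights, each array left out, a replicate block, covariates for RNA quality and other limits on p and fold. Replicate numbers were not treated as pairs in the main fit. Promoters came from RefSeq, and motifs were searched on both strands. Figures were drawn in matplotlib 3.10.9.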

Additional observations from a re-analysis of the deposited data

How the results depend on the processing

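The fall of Wwox 1416334_at was called under all 16 alternatives, with changes of -1.81 to -1.61. With the replicate number as a block it was -1.69 (limma, adjusted p = 0.0686). The same-numbered WT and KO arrays had deviations that correlated at -0.155, 0.16 and 0.0994. With 3 arrays per group these values cannot decide whether the numbers mark pairs. The block left 2 member probe sets called lower and 0 higher, and 5 pathway genes called higher and 3 lower. Member probe sets called lower numbered 1 in place of 2 after ribosomal protein centring (1438517_at at -0.96), with a minimum mean of 6 (which leaves that probe set out), with array weights and at an adjusted p under 0.05, and 1 to 2 when an array was left out (1 without WT1 or WT3). Member probe sets called higher numbered 1, a Yap1 probe set, with an unadjusted p under 0.01 and no fold limit, and 0 under the other alternatives. Pathway genes called higher, 5 in the report, were 3 to 8 when an array was left out (8 without WT1, 3 without WT2, KO5 or KO6), 3 with either covariate for RNA quality and 1 at an adjusted p under 0.05. Of those 5, Col1a1 alone was still called with the Gapdh/β-actin covariate, and Col1a1 and Btg2 with all 4 controls. The counts of 3 therefore include genes not called in the main fit. Pathway genes called lower, 2 in the report, were 1 after cyclic loess and after ribosomal protein centring, 1 to 4 when an array was left out (1 without WT1 or WT2, 4 without WT3), 1 with the Gapdh/β-actin covariate, 4 with all 4 controls, 1 at an adjusted p under 0.05 and 6 with an unadjusted p under 0.01 and no fold limit. The 4 with all 4 controls held Egln3 and Pmaip1 and also genes not called in the main fit. Centring on ribosomal protein genes moved the median of all probe sets from -0.03 to 0.04. For 3 of 19 partner probe sets the confidence interval reached beyond a 2-fold change.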
